A study of Mus musculus with 48 samples.

Results

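CD25- conventional CD4 T cells (Tcons) from the spleens of mice given wild-type (WT) IL-2 were compared with Tcons from mice given PBS. The comparison uses every Tcon library labelled with either treatment, 4 WT and 4 PBS, which is 8 of the 48 RNA-seq libraries of the series and 8 of its 16 Tcon libraries. In each treatment 2 mice had received an isotype control antibody and 2 an antibody that blocks MHC class II, so the isotype arm and the MHC II block arm each hold 2 WT and 2 PBS libraries. The other 8 Tcon libraries come from mice given the IL-2 muteins H16R or 3x in the same arms, and the other 32 libraries are Tregs. All mice were C57BL/6 females aged 8 to 12 weeks. Every mouse, PBS controls included, received 500 µg of isotype or anti-MHC II antibody intraperitoneally on day -1 and again on day 0. On day 0 it received PBS or 25 µg of a human IL-2 fused to a human Fc, subcutaneously, and spleens were taken on day 4. The Tcons are the flow-through of a magnetic CD25 selection that follows a CD4 T cell enrichment, and they were not sorted by flow cytometry. A group within an arm is 2 mice, each processed as a separate sample.

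IL-2 is bound by 3 receptor chains. The beta chain (Il2rb) and the common gamma chain (Il2rg) carry the signal through the kinases Jak1 and Jak3 to STAT5, and the alpha chain (CD25, Il2ra) raises the affinity. Tregs carry CD25 at rest, whereas resting Tcons have little of it and respond mainly to high doses through the beta and gamma chains. STAT5 dimers bind DNA at inverted TTC/GAA repeats and induce, among others, Il2ra itself and the feedback inhibitors Cish and Socs2. In spleen, IL-2 given at high dose is also known to act on NK cells, memory CD8 T cells and innate lymphoid cells, and to raise eosinophils.

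The promoters below show where such repeats lie near genes whose transcripts differed between WT and PBS Tcons. They are RefSeq promoters on GRCm38.p6 of 300 bases, read 5′ to 3′ on the gene's strand, and positions are counted from the start site. Every match to TTCNNNGAA is in capitals. The motif reads the same on both strands and was searched by letters alone. It occurs in 2726 of 32851 promoters (8.30%), and 2582 of 27025 genes (9.55%) have at least 1 promoter with it. Of the STAT5 feedback and target genes listed here, 15 have a promoter in the table and 4 hold the motif (26.7%): Cish, Socs3, Bcl6 and Gzmb. Of the IL-2 receptor and gamma-c family, 11 have one and 1 holds it (9.1%), Il7r. The 4 promoters printed were chosen after the genes' values and the matches were seen. Cish and Gzmb are targets of STAT5, Il12rb2 encodes a chain of the IL-12 receptor, and Bach2 encodes a repressor that holds T cells in a naive state. Cish lies at chr9:107296409-107296708 (+), with matches that start at positions 1 and 12 from the start site. Gzmb lies at chr14:56262285-56262584 (-), with a match at 38. Il12rb2 lies at chr6:67376139-67376438 (-), with a match at -123, and Bach2 at chr4:32417185-32417484 (+), with a match at -140. The Bach2 gene spans chr4:32238804-32586108 and the Cish gene chr9:107296026-107302784. Both printed windows thus lie inside the annotated gene, and the region of its annotated 5′ end was not printed. The window of Il2ra, chr2:11642542-11642841 (+), held 0 matches. A match describes letters and not binding, which was not measured.
Cish: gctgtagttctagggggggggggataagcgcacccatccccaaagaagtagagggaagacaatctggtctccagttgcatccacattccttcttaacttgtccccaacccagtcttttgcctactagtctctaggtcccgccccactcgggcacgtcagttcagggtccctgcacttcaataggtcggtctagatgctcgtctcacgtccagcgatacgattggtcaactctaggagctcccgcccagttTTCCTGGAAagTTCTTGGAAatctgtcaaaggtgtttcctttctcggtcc
Gzmb: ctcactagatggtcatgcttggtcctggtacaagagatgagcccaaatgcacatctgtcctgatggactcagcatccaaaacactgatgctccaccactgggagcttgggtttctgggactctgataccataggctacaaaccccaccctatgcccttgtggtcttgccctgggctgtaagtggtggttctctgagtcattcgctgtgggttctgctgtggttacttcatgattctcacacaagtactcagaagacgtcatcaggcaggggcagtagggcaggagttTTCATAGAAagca
Il12rb2: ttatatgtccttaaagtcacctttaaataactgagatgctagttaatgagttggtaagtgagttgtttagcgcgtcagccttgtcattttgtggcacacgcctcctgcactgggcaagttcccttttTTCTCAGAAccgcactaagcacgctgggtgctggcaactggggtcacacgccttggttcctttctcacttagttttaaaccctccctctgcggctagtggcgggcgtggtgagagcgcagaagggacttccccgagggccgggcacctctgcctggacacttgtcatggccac
Bach2: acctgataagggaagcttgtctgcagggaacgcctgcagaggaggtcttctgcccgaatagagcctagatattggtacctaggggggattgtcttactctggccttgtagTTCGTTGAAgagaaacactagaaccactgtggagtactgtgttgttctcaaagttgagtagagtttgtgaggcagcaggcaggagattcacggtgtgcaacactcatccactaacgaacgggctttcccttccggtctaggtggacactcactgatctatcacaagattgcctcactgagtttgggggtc

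The 8 libraries held 33.92 to 42.16 M expected counts, with a median of 38.37 M, and levels are given as CPM, the expected counts of a gene scaled to its library's total (counts per 1 M). The label was checked against marker genes. Cd3e, a chain of the T cell receptor complex, was at 201 to 324 CPM, and Cd4 at 463 to 928. Foxp3, the factor that defines Tregs, was at 48.2 to 189 CPM, so the CD25- fraction still held Foxp3 transcripts. The B cell gene Pax5 was at 16.3 to 173 and the myeloid gene Lyz2 at 8.39 to 279 CPM. Libraries stood apart. The chi-square per gene between the replicates of a group was 9.38 in isotype PBS, 4.38 in block PBS, 14.2 in block WT and 87.5 in isotype WT, so the isotype WT mice differed most. Isotype WT replicate 2 had 15 Treg marker genes summing to 2280 CPM, against 1020 in isotype WT replicate 1, 597 and 762 in block WT and 692 to 933 in PBS. Isotype WT replicate 1 and block WT replicate 1 had the highest sums of 12 erythroid genes, 1080 and 710 CPM, against 205 to 319 in PBS. The block WT libraries had the highest myeloid sums (20 genes), 1310 and 861 CPM, against 195 and 206 in block PBS, 521 and 454 in isotype PBS and 367 and 305 in isotype WT. Counts are also given without these libraries.

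Of 12526 protein-coding genes tested, 4805 (38.4%) differed between WT and PBS Tcons at an adjusted p under 0.1. Here 2748 (21.9%) were higher and 2057 (16.4%) lower with WT IL-2, and the median log2 fold change over all genes was 0.02. Every adjusted p comes from the quasi-likelihood test of edgeR, corrected by Benjamini-Hochberg across all tested genes. Fold changes average the antibody arms with equal weight, and errors are standard errors (SE). In bulk RNA, a change in the share of cells of a type and a change in RNA per cell cannot be told apart, and this holds for every gene below. In 1866 genes (14.9%) the 4 WT and the 4 PBS libraries did not overlap in CPM, and 1713 of these were past the threshold. Calls moved with single libraries. A fit without 1 library leaves a group of 1 mouse, whose spread is then taken from the other groups. Without block WT replicate 1 there were 3187, and without isotype WT replicate 2 there were 7112. With only the 8 libraries and antibody as an additive term, 1919 genes were called, 1040 higher and 879 lower. Within the isotype arm 1876 genes (15%) were called, 938 higher and 938 lower (7.49% each). This count and its even split rested on single mice, with 598 (219 higher and 379 lower) and 849 calls without isotype PBS replicate 2 and 1, and 2902 and 4846 (2635 higher and 2211 lower) without isotype WT replicate 1 and 2. Within the MHC II block arm 4358 (34.8%) were called, 2424 higher (19.4%) and 1934 lower (15.4%), and there were 2337 and 2341 calls without block PBS replicate 1 and 2 and 1864 without block WT replicate 1. Of the calls with all libraries, 761 were called in the same direction in both arms, 40.6% of the isotype calls and 17.5% of the block calls, and 342 were called in opposite directions.

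**Figure D1:**
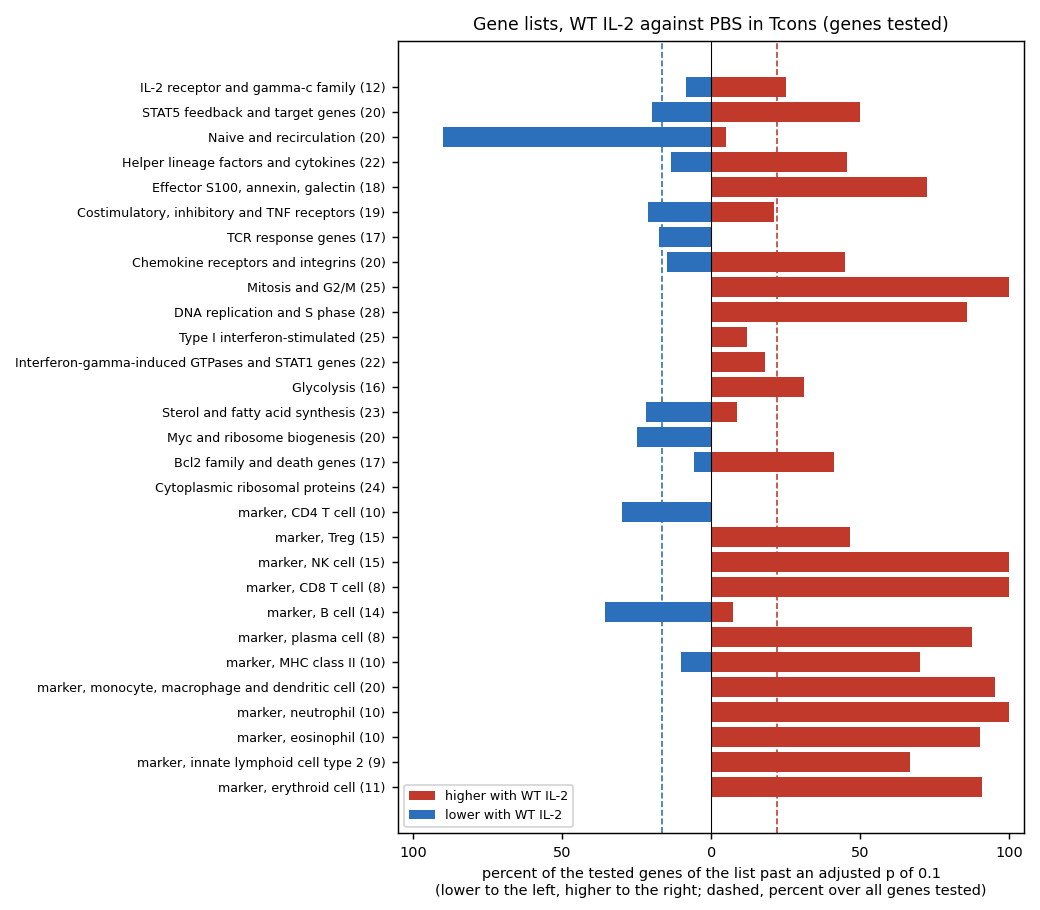
Percent of the tested genes of each of 29 gene lists that were past an adjusted p of 0.1 between WT and PBS Tcons, higher to the right and lower to the left, with the number of genes tested in parentheses; the dashed lines give the percent over all 12526 genes, 21.9 higher and 16.4 lower. All 25 mitosis genes were higher, and 18 of 20 naive and recirculation genes were lower.

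Among the IL-2 receptor chains, Il2ra rose most. It was at 19.6 and 19 CPM in the isotype PBS libraries, 19.3 and 18.3 in block PBS, 50.3 and 65.3 in isotype WT and 33.1 and 38.1 in block WT. Every WT library was above every PBS library, and the isotype WT libraries were above the block WT libraries. The change was 2.38-fold (log2 1.25 ± 0.10 SE, adjusted p = 1.86e-05), with log2 1.58 in the isotype arm and 0.92 in the block arm, and the response was smaller under MHC II blockade (difference -0.66 ± 0.19, adjusted p = 0.05). Il2ra (ENSMUSG00000026770) spans chr2:11642807-11693193 (+) on GRCm38. Its level in the selected Tregs of the same mice was 313 to 443 CPM, so CD25 transcript in WT Tcons remained far below that of Tregs. Foxp3 was at 101 and 189 CPM in isotype WT against 60.8 and 55 in isotype PBS, and at 48.2 and 69.8 in block WT against 69.9 and 79 in block PBS. The part of Treg transcripts in the rise of Il2ra was not tested.

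Il2rb was at 436 and 436 CPM in isotype PBS, 420 and 423 in block PBS, 523 and 675 in isotype WT and 509 and 468 in block WT. The groups did not overlap, and the rise was 1.26-fold (log2 0.34 ± 0.08, adjusted p = 0.0135). The common gamma chain Il2rg, at 413 to 476 CPM in PBS and 422 to 506 in WT, did not pass the test (log2 0.05 ± 0.06, adjusted p = 0.491). Il15ra, the alpha chain for IL-15, was called higher by log2 0.25 ± 0.10 (adjusted p = 0.0833), with isotype WT replicate 2 at 14.9 CPM and the other WT libraries between 10.9 and 11.3. The call was lost in 7 of the 8 fits that left out 1 WT or PBS library.

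Other members of the receptor family moved little. Il4ra, the IL-4 receptor chain, was called lower (log2 -0.21 ± 0.08, adjusted p = 0.0874), a call lost in 6 of those 8 fits. The IL-7 receptor Il7r (-0.16), the IL-9 receptor Il9r (-0.25), the IL-21 receptor Il21r (-0.16) and the signalling genes Jak1 (-0.07), Jak3 (0.08), Stat5a (-0.03) and Stat5b (-0.13) did not pass the test over both arms. In all, 3 of the 12 genes of this list rose and 1 fell over both arms, with 5 and 0 in the isotype arm and 1 and 5 in the block arm. Over all genes 21.9% and 16.4% were called over both arms, 7.49% each way in the isotype arm and 19.4% and 15.4% in the block arm, so the count over both arms was near that of genes at large. Stat5a responded differently in the arms, with log2 0.14 with isotype and -0.19 with MHC II blockade (difference -0.33 ± 0.07, adjusted p = 0.00717), and so did Jak3 (0.43 and -0.28, difference -0.71 ± 0.21, adjusted p = 0.0599).

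**Figure D2:**
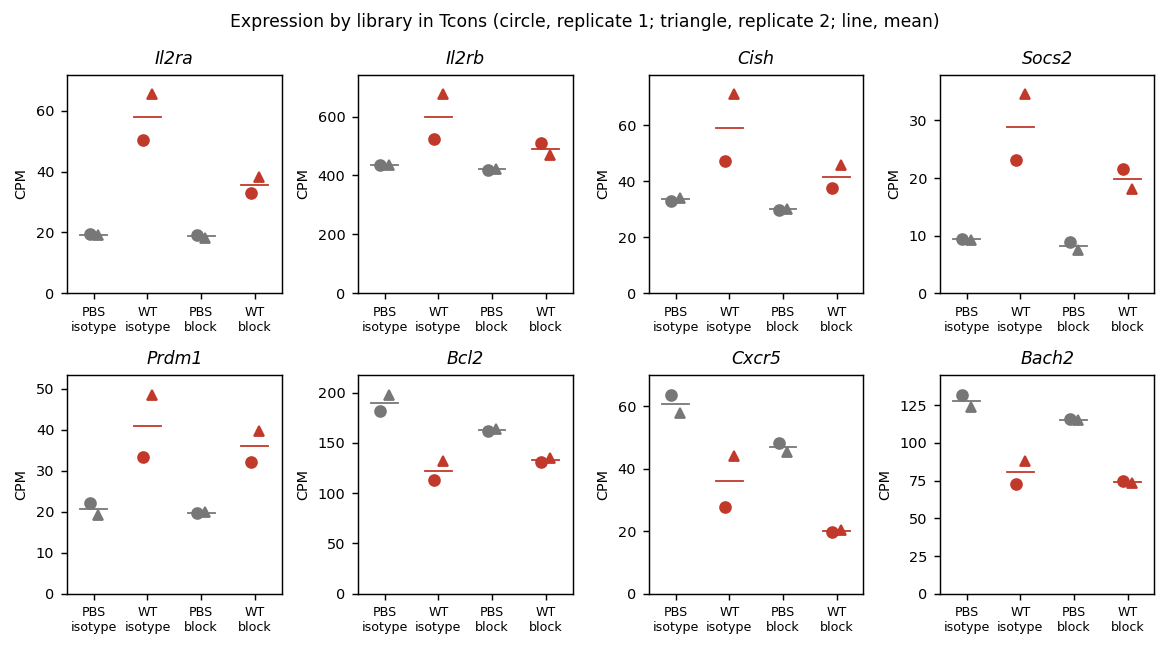
CPM of 8 genes in the 8 Tcon libraries, grouped by treatment and antibody arm, with circles for replicate 1, triangles for replicate 2 and lines for the mean of each pair. For Il2ra, Il2rb, Cish, Socs2 and Prdm1 every WT library lies above every PBS library, and for Bcl2, Cxcr5 and Bach2 every WT library lies below.

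Of the STAT5 feedback and target genes 10 of 20 rose and 4 fell, with a median log2 fold change of 0.18, where 21.9% of all genes were higher and 16.4% lower with a median of 0.02. In the isotype arm 5 rose and 3 fell (7.49% of all genes each way), and in the block arm 9 and 2 (19.4% and 15.4%). Socs2, a suppressor of cytokine signalling, was at 9.38 and 9.34 CPM in isotype PBS, 8.84 and 7.57 in block PBS, 23.2 and 34.5 in isotype WT and 21.5 and 18.1 in block WT. The groups were far apart, and the rise was 2.73-fold (log2 1.45 ± 0.12, adjusted p = 2.39e-05), past the threshold in each arm. A window inside the gene of Cish, the other STAT5-induced feedback inhibitor, is printed above. Cish was at 33 and 34.2 in isotype PBS, 29.8 and 30.2 in block PBS, 47.3 and 71 in isotype WT and 37.5 and 45.9 in block WT. Every WT library was above every PBS library, a 1.56-fold rise (log2 0.65 ± 0.12, adjusted p = 0.00314). Neither Socs2 nor Cish had a response that differed between the arms past the threshold (differences -0.36 ± 0.23 and -0.35 ± 0.24). Socs1 did not pass the test (log2 -0.04 ± 0.14). Socs3 (log2 0.03 ± 0.14) depended on 1 library: isotype WT replicate 2 was at 232 CPM, the other WT libraries at 127 to 139 and PBS at 132 to 176, and without it Socs3 was called lower, at log2 -0.22.

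Prdm1, Xbp1 and Gzmb were among the genes of this list that rose. Prdm1, which encodes Blimp-1, was at 22 and 19.2 CPM in isotype PBS, 19.6 and 19.8 in block PBS, 33.4 and 48.5 in isotype WT and 32.2 and 39.6 in block WT, without overlap and 1.90-fold higher (log2 0.93 ± 0.12, adjusted p = 0.000424). Xbp1, a factor of the unfolded protein response, was at 91.9 to 123 CPM in PBS and 157 to 250 in WT (log2 0.96 ± 0.12, adjusted p = 0.000266). Both genes are also highly expressed in plasma cells, whose markers rose in the same libraries (given with the other cell types). Gzmb, the cytotoxic protease granzyme B, was at 27.5 and 39.7 in isotype PBS, 23.8 and 20.6 in block PBS, 42.8 and 41.8 in isotype WT and 60.1 and 47.7 in block WT, 1.75-fold higher (log2 0.81 ± 0.14, adjusted p = 0.00181). Gzmb rose more under MHC II blockade (difference 0.95 ± 0.28, adjusted p = 0.0531), where the summed NK cell markers were also highest.

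Rgs1, a brake on chemokine receptor signalling, was at 286 to 404 CPM in PBS and 409 to 625 in WT (log2 0.65 ± 0.12, adjusted p = 0.00321). Rises were also called for the kinase phosphatase gene Dusp5 (log2 0.31), the cell cycle inhibitor Cdkn1a (0.66), the cyclin Ccnd3 (0.19) and the cytokine Osm (0.41). Osm rose in the block arm, at 26.2 and 24.8 CPM against 13.8 and 13.8, and not in the isotype arm, at 11.4 and 11.5 against 11.1 and 12.8 (difference 0.94 ± 0.12, adjusted p = 0.000311). The call for Ccnd3 was lost in 5 of the 8 fits that left out a library, and those for Osm and Cdkn1a in the fit of the 8 libraries alone.

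The survival gene Bcl2 fell. It was at 182 and 198 CPM in isotype PBS, 162 and 164 in block PBS, 113 and 132 in isotype WT and 131 and 135 in block WT, and every WT library was below every PBS library (1.38-fold lower, log2 -0.47 ± 0.09, adjusted p = 0.00383). Bcl6, the factor of follicular helper T cells, was at 32.5 to 48.9 CPM in PBS and 20.5 to 36.9 in WT and was called lower (log2 -0.62 ± 0.14, adjusted p = 0.00739), with isotype WT replicate 2 inside the PBS range. Dusp6 (log2 -0.33) and Myc (-0.22) were called lower too. Myc responded differently in the arms (log2 -0.60 with isotype and 0.16 under blockade, difference 0.76 ± 0.18, adjusted p = 0.017), and its call over both arms was lost in 6 of the 8 fits that left out a library. The kinases Pim1 (0.17) and Pim2 (0.00), the cyclin Ccnd2 (-0.16) and the TNF receptor gene Tnfrsf8 (-0.51) did not pass the test.

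Proliferation genes were higher with WT IL-2 in 3 of the 4 WT libraries. All 25 mitosis genes rose (median log2 0.75) and 24 of 28 DNA replication and S phase genes rose (median 0.43), with 0 falling in either list, where 21.9% of all genes were higher. Summed over the 25 mitosis genes, the level was 716 to 855 CPM in PBS, 1580 in isotype WT replicate 1, 1640 and 1380 in block WT and 813 in isotype WT replicate 2, which lay within the PBS range. Ccna2, the cyclin of S and G2 phase, followed this pattern, at 27.2 to 33.2 CPM in PBS, 74.6 and 28.6 in isotype WT and 72 and 60.3 in block WT (log2 0.91 ± 0.23, adjusted p = 0.0138). Rrm2, a subunit of ribonucleotide reductase, was at 32.5 to 40.3 in PBS, 98.3 and 39.8 in isotype WT and 96 and 75.5 in block WT (log2 1.05 ± 0.21, adjusted p = 0.00444). Of the 25 mitosis genes 3 had no overlap, near the 14.9% of all genes. Among them was Prc1, a spindle midzone protein, at 18.2 to 21.7 CPM in PBS and 26.1 to 45.2 in WT (log2 0.91 ± 0.14). Birc5, the survivin gene, and Ube2c, which serves the anaphase-promoting complex, each rose by log2 0.91. Cdc6 (0.89) and Ccne1 (0.95), which act at the start of replication, and the thymidine kinase gene Tk1 (0.82) rose as well, and in each of the 3 isotype WT replicate 2 was no higher than the highest PBS library.

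The same libraries were high in markers of other dividing or recently divided cells. The summed level of 8 plasma cell genes was 3170 and 1750 CPM in isotype WT and 2840 and 3000 in block WT, against 939 to 1610 in PBS, and that of the erythroid genes was 1080 and 200 in isotype WT and 710 and 410 in block WT. The part of these cells in the rise of the proliferation genes was not tested. By flow cytometry of gated Tcons, the paper reports no rise of the Ki67 protein with any of the IL-2 molecules. In the fit of the 8 libraries alone, 16 mitosis and 9 S phase genes were called higher and 0 lower, where 1040 genes were higher in all. When 1 of the 8 libraries was left out, Ccna2 was at log2 0.49 to 1.18 and Rrm2 at 0.65 to 1.31. In the isotype arm alone 3 genes of each list passed, where 7.49% of all genes were higher, and in the block arm 24 and 13, where 19.4% were.

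**Figure D3:**
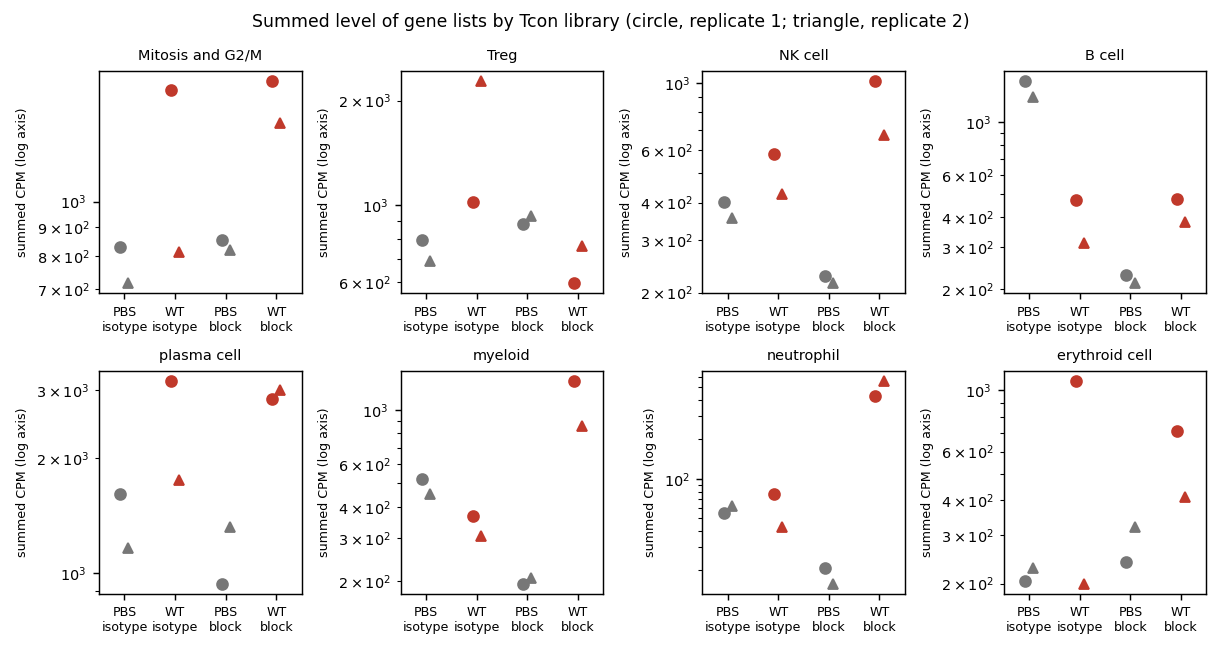
Summed CPM of the genes of 8 lists in each Tcon library on log axes, grouped by treatment and antibody arm (circles, replicate 1; triangles, replicate 2). The mitosis sum of isotype WT replicate 2 (813) lies among the PBS libraries, its Treg sum (2280) is the highest of all, and the myeloid and neutrophil sums are highest in the MHC II block WT libraries.

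Naive and recirculation genes fell as a group. Of 20 genes, 18 fell and 1 rose, with a median log2 fold change of -0.39 against 0.02 over all genes, and in 12 the WT and PBS libraries did not overlap. Over all genes 16.4% fell and 14.9% did not overlap. Bach2, with a window inside the gene printed above, was at 132 and 124 CPM in isotype PBS and 116 and 115 in block PBS. It was at 73.1 and 87.9 in isotype WT and 74.7 and 73.3 in block WT. The groups were well apart (1.57-fold lower, log2 -0.65 ± 0.08, adjusted p = 0.000232), and the fall was nearly the same size in each arm (difference 0.03 ± 0.16). Il6st, the gp130 chain of the IL-6 receptor, was at 265 to 344 CPM in PBS and 169 to 241 in WT (log2 -0.61 ± 0.08). It fell more under MHC II blockade (log2 -0.87) than with isotype (-0.34, difference -0.52 ± 0.16, adjusted p = 0.0697). Nsg2, a membrane protein gene that marks naive T cells, was at 203 and 214 in isotype PBS, 250 and 253 in block PBS and 145 to 166 in the 4 WT libraries (log2 -0.60 ± 0.06, adjusted p = 6.23e-05).

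The gene of this list that rose was Itgae, the CD103 integrin chain, which is also a Treg marker. It was at 14.6 and 16.3 CPM in isotype PBS, 12 and 13.6 in block PBS, 36.6 and 42.1 in isotype WT and 18.8 and 16.8 in block WT (log2 0.91 ± 0.09, adjusted p = 0.000101), and its rise was smaller under blockade (difference -0.88 ± 0.19, adjusted p = 0.00996). The gene that did not pass was Ly6c1 (log2 -0.06 ± 0.10), named after its value was seen. Counts of this list changed little: 13 to 18 genes were lower when any 1 of the 8 libraries was left out, 16 without the libraries of the highest erythroid sum, and 14 in the fit of the 8 libraries alone.

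Of the helper genes 10 of 22 rose and 3 fell, where 21.9% and 16.4% of all genes did. The list was not raised in every WT library. Its mean log2 difference from PBS of the same arm was 0.12 and 0.7 in isotype WT replicates 1 and 2. In block WT it was -0.1 and -0.14. Il1rl1, the IL-33 receptor of type 2 cells and of tissue Tregs, was at 6.49 and 9.08 CPM in isotype PBS, 8.42 and 8.44 in block PBS, 21.8 and 23.9 in isotype WT and 15.4 and 13.2 in block WT. It rose 2.23-fold without overlap (log2 1.16 ± 0.10, adjusted p = 4.39e-05), less under blockade (difference -0.79 ± 0.20, adjusted p = 0.0283). The cytokine Il13 was low, at 0.0487 to 0.406 CPM in PBS and 0.744 to 1.82 in WT, a 5.93-fold rise (log2 2.57 ± 0.28, adjusted p = 0.000146; 3.16 without block PBS replicate 1). Both Il1rl1 and Il13 are also markers of innate lymphoid cells type 2, of whose 9 tested genes 6 rose. That list summed to 304 and 395 CPM in isotype WT, 229 and 232 in block WT and 229 to 254 in PBS.

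Il12rb2, the inducible chain of the IL-12 receptor, was at 11.1 and 13 CPM in isotype PBS, 10.4 and 8.69 in block PBS, 22.1 and 16.2 in isotype WT and 30.2 and 25.5 in block WT. It rose 2.16-fold (log2 1.11 ± 0.14, adjusted p = 0.000287), more under blockade (difference 0.87 ± 0.27, adjusted p = 0.0725). The type 1 cytokine Ifng and its regulator Tbx21, named after their values were seen, rose as well. Ifng was at 57.6 and 56.2 in isotype PBS, 82.2 and 73.5 in block PBS, 101 and 107 in isotype WT and 145 and 113 in block WT (log2 0.80 ± 0.12, adjusted p = 0.000825), and Tbx21 was at 39.2 to 43 in PBS and 63.9 to 78.1 in WT (log2 0.75 ± 0.12, adjusted p = 0.00118). For neither gene did the response differ between the arms past the threshold. NK cells also express Ifng, Tbx21 and Il12rb2, and the sums of 15 NK cell genes were 583 and 428 CPM in isotype WT against 402 and 356 in PBS, and 1020 and 672 in block WT against 227 and 215. Their part in these rises was not tested.

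The helper genes with the lowest fold changes were Cxcr5 and Il23r. Cxcr5, the receptor that leads cells to B cell follicles, was at 63.7 and 57.9 CPM in isotype PBS, 48.4 and 45.3 in block PBS, 27.9 and 44.2 in isotype WT and 19.7 and 20.3 in block WT. Every WT library was below every PBS library, a 1.98-fold fall (log2 -0.99 ± 0.13, adjusted p = 0.000356). Cxcr5 is also a B cell gene. The summed B cell markers were 474 and 311 CPM in isotype WT against 1490 and 1280 in isotype PBS, and 479 and 382 in block WT against 229 and 212 in block PBS. Their part in the fall of Cxcr5 was not tested. Il23r, the IL-23 receptor of type 17 cells, was near the filter, at 0.684 to 1.32 CPM in PBS and 0.358 to 0.517 in WT (log2 -1.02 ± 0.32, adjusted p = 0.0343), and was not called without isotype PBS replicate 2 (log2 -0.74).

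Effector genes of the S100, annexin and galectin families rose in 13 of 18 cases, with 0 falling and a median log2 fold change of 0.37 (21.9% of all genes rose and 16.4% fell). S100a4 and S100a6, calcium-binding proteins of effector and memory T cells, were clear of the PBS range in every WT library. S100a4 was at 84.3 and 85.2 CPM in isotype PBS, 98.6 and 97.9 in block PBS, 130 and 220 in isotype WT and 163 and 150 in block WT (log2 0.86 ± 0.13, adjusted p = 0.000967). S100a6 was at 61.8 to 74.2 in PBS and 92 to 194 in WT (log2 0.87 ± 0.18, adjusted p = 0.0046). Lgals3, the galectin-3 gene, was at 17.1 and 18.2 in isotype PBS, 11.9 and 11.7 in block PBS, 21 and 30.4 in isotype WT and 51.2 and 42.1 in block WT (log2 1.26 ± 0.13, adjusted p = 0.00012). Anxa1, an annexin abundant in myeloid cells, rose in the block arm (57.6 and 55.2 against 12.5 and 10.6) and not in the isotype arm (23.4 and 17.7 against 19.1 and 20), and the difference was log2 2.22 ± 0.17 (adjusted p = 1.09e-05). Lgals3 is abundant in macrophages too, and its response also differed (1.44 ± 0.27, adjusted p = 0.004). The rise of both genes in the block arm went with the myeloid sums given above, whose part was not tested.

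Chemokine receptor and integrin genes rose in 9 of 20 cases and fell in 3 (21.9% and 16.4% of all genes). Ccr2, which leads cells to inflamed tissue, was at 34.9 and 36.9 CPM in isotype PBS, 31.1 and 27.7 in block PBS, 71.2 and 89.4 in isotype WT and 107 and 86.8 in block WT (2.71-fold, log2 1.44 ± 0.08, adjusted p = 3.81e-06). Cxcr6 was at 49.9 to 66.8 in PBS and 123 to 142 in WT, 2.31-fold higher (log2 1.21 ± 0.12, adjusted p = 8.38e-05), with almost the same change in each arm (1.16 and 1.25). Ccr10, a skin-homing receptor that plasma cells carry as well, was at 1.84 to 2.46 in PBS and 6.78 to 10.2 in WT (log2 1.84 ± 0.22, adjusted p = 0.000262). Ccr3, the eosinophil receptor, was at 0.268 to 0.963 in PBS and at 1.46, 2.02, 7.14 and 1.90 in WT (log2 2.57 ± 0.38), with block WT replicate 1 far above the others (log2 1.94 without it).

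Costimulatory, inhibitory and TNF receptor genes were divided by arm. Over both arms 4 of 19 were higher and 4 lower, near the 21.9% and 16.4% of all genes. With isotype 8 were higher and 1 lower, where 7.49% of all genes were called each way, and under blockade 3 were higher and 9 lower, where 19.4% and 15.4% were. Btla, an inhibitory receptor, was at 146 to 159 CPM in PBS, 79.8 and 125 in isotype WT and 71.2 and 86 in block WT, 1.71-fold lower without overlap (log2 -0.77 ± 0.12, adjusted p = 0.0009). Cd200 fell in the block arm (11.3 and 15.1 against 36.9 and 35.7), while the isotype WT libraries were at 13.3 and 32.3 against 27 and 21.6 (difference -1.37 ± 0.43, adjusted p = 0.0702). Havcr2 (Tim-3) was higher in the block arm (14.7 and 10.2 against 1.86 and 1.14) and not in the isotype arm (5.07 and 6.63 against 8.31 and 5.68), with a difference of log2 3.31 ± 0.40 (adjusted p = 0.000171). Cd160, an inhibitory receptor also found on NK cells, rose by log2 0.67 ± 0.14. The isotype WT mice differed in this list. Its mean log2 difference from PBS of the same arm was -0.05 in isotype WT replicate 1 and 0.79 in replicate 2. In block WT it was -0.48 and -0.27.

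Over both arms, 0 of 17 TCR response genes were called higher and 3 lower, with 0 and 4 in the isotype arm and 4 and 4 in the block arm. Over all genes 16.4% were lower over both arms, 7.49% with isotype and 15.4% under blockade, where 19.4% were higher. Fosb was at 1790 and 2120 CPM in isotype PBS, 1780 and 1730 in block PBS, 1310 and 1590 in isotype WT and 1370 and 1460 in block WT, lower in every WT library (log2 -0.37 ± 0.09, adjusted p = 0.0106). The factors Egr3 (log2 -0.49, adjusted p = 0.0264) and Egr2 (-0.29, adjusted p = 0.086) were the others. The call for Egr3 was lost without block WT replicate 1 (-0.37) and that for Egr2 in 6 of the 8 fits that left out a library. Egr1 moved in opposite directions in the arms. It fell with isotype, from 598 and 635 to 506 and 443 CPM, and rose under blockade, from 426 and 409 to 493 and 494, with a difference of log2 0.62 ± 0.12 (adjusted p = 0.00546).

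Of the interferon lists, 3 of 25 type I genes and 4 of 22 interferon-gamma-induced genes rose and 0 fell, both below the share over all genes. Oas1a, an antiviral synthetase, was at 22.5 to 28.7 CPM in PBS and 36.1 to 46.7 in WT (log2 0.64 ± 0.10, adjusted p = 0.000825), and the guanylate-binding protein Gbp3 at 27.4 to 34.7 and 39 to 57.4 (log2 0.57 ± 0.11, adjusted p = 0.00302). Cmpk2 (0.44) and Bst2 (0.16) were the other type I genes called, the last of them lost in 5 of the 8 fits that left out a library. The interferon-gamma-induced list depended on the isotype WT pair, with 10 higher and 0 lower without replicate 1 and 4 higher and 12 lower without replicate 2.

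Metabolic lists moved little, with 21.9% of all genes called higher and 16.4% lower for comparison. In glycolysis 5 of 16 genes rose, led by the glucose transporter Slc2a3, at 70.6 to 84 CPM in PBS and 98.8 to 104 in WT (log2 0.39 ± 0.04, adjusted p = 8.11e-05), and hexokinase Hk2, which rose under blockade (log2 0.96) and fell with isotype (-0.49, difference 1.45 ± 0.14, adjusted p = 2.72e-05). In sterol and fatty acid synthesis 2 of 23 rose and 5 fell, among them Insig1 (log2 -0.33 ± 0.07), a sensor of sterol. In the Myc and ribosome biogenesis list 0 rose and 5 fell, with Polr1b, a subunit of RNA polymerase I, at log2 -0.23 ± 0.07. The 24 cytoplasmic ribosomal protein genes gave 0 calls (log2 -0.15 to 0.15). The last 2 lists again differed within the isotype WT pair. The mean log2 difference from PBS of the same arm was 0.07 in replicate 1 and -0.31 in replicate 2 for biogenesis. For ribosomal proteins it was 0.17 and -0.23. In block WT these were -0.01 and 0.01 for biogenesis and 0.05 and 0.1 for ribosomal proteins.

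In the Bcl2 family and death list 7 of 17 rose and 1, Bcl2, fell (21.9% and 16.4% of all genes). Bik, a pro-apoptotic member, was at 1.02 to 1.30 CPM in PBS and 1.80 to 2.60 in WT (log2 0.94 ± 0.16, adjusted p = 0.00148). Pmaip1 (Noxa) rose under blockade, to 67.8 and 67.6 from 31.7 and 29.3, and not with isotype, where it was at 47.5 and 93.8 against 87.8 and 69 (difference 1.30 ± 0.33, adjusted p = 0.0278).

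The 12 largest rises among genes with a mean CPM above 5, a call and no overlap were those of granulocyte, mast cell, erythroid, plasma cell and cytotoxic genes. Epx, eosinophil peroxidase, was at 0.938 and 0.649 CPM in isotype PBS, 1.14 and 1.48 in block PBS, 22.8 and 6.96 in isotype WT and 36.7 and 39.6 in block WT (23.1-fold, log2 4.53 ± 0.43, adjusted p = 6.6e-05). Prss34 and Mcpt8, proteases of basophils and mast cells, were at 0.633 to 1.77 and 1.85 to 2.36 in PBS and at 9.41 to 33.8 and 8.38 to 20.1 in WT (20.0-fold and 6.90-fold). Elane, neutrophil elastase of myeloid progenitors, rose 5.39-fold and Ms4a3, a gene of granulocyte and monocyte progenitors, 5.07-fold. All of these were higher in each of the 4 WT libraries and past the threshold in each arm. Gzma, granzyme A, was at 25.8 and 9.60 in isotype PBS, 1.46 and 2.02 in block PBS, 51.9 and 30.5 in isotype WT and 181 and 97.8 in block WT, 13.6-fold higher over both arms and more so under blockade (difference 5.10 ± 0.69, adjusted p = 0.000417).

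Fkbp11, a chaperone of secretory cells, was at 1.71 to 3.48 CPM in PBS and at 18.1, 5.76, 15 and 17 in WT (5.17-fold, log2 2.37 ± 0.32). Among the erythroid genes, the anion exchanger Slc4a1 (38.7-fold) and the globins Hbb-bs (24.7-fold), Hbb-bt and Hba-a1 rose with unequal levels. The values rested on single libraries. Without isotype WT replicate 1 the log2 fold change fell from 5.27 to 3.81 for Slc4a1, from 4.63 to 3.03 for Hbb-bs, from 4.25 to 2.80 for Hbb-bt and from 4.23 to 2.64 for Hba-a1, and without block WT replicate 1 these were 4.26, 3.74, 3.33 and 3.39. Slc4a1, near 0 CPM in PBS, was at log2 6.15 without isotype PBS replicate 1 and 6.40 without block PBS replicate 2, and Hbb-bt at 4.85 without isotype PBS replicate 1. Hbb-bs was at 79 and 4.54 in isotype WT and 49.7 and 8.49 in block WT against 0.558 to 2.38 in PBS, so replicate 1 of each WT pair was the higher. The globin genes have near-identical copies, among which estimated counts can be shared, and their single levels are uncertain.

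The 12 largest falls under the same conditions were smaller, from log2 -0.67 to -0.99. Beside Cxcr5 and Btla they were Smtn, a smooth muscle cytoskeletal gene (log2 -0.96 ± 0.11), Apol8 (-0.87), Zscan18 (-0.78), the semaphorin receptor Plxna3 (-0.77), Utp14b (-0.71), Sfmbt2 (-0.71), Mdn1 (-0.70), Id3 (-0.67), Whrn (-0.67) and Vmn2r97 (-0.67). Id3, an inhibitor of E proteins that is high in naive and follicular helper T cells, was at 29.3 and 28.9 CPM in isotype PBS, 26.2 and 27.5 in block PBS, 18.1 and 18.9 in isotype WT and 17.8 and 15.4 in block WT (log2 -0.67 ± 0.08, adjusted p = 0.000266). Mdn1, a ribosome assembly factor, was at 361 to 393 in PBS and 202 to 283 in WT (log2 -0.70 ± 0.10, adjusted p = 0.000803). In both genes every WT library lay below every PBS library.

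Most lists of markers of cells other than CD4 T cells had more genes higher than lower over both arms, where 21.9% and 16.4% of all genes were. The B cell list had 1 of 14 higher and 5 lower, with 0 and 14 in the isotype arm and 9 and 0 in the block arm. MHC class II genes were higher in 7 of 10 cases and lower in 1, with 0 and 10 in the isotype arm and 10 and 0 in the block arm. The direction over both arms depended on the model. In a 16-library fit with additive drug and antibody, H2-Aa, H2-Ab1, H2-Eb1, H2-DMb1 and Ciita reversed (values at the end). Of the CD4 T cell list 0 of 10 rose and 3 fell, Cd4 among them at log2 -0.34 ± 0.12, a call lost in 4 of the 8 fits that left out a library. Plasma cell genes rose in 7 of 8 cases (median log2 1.26) with 7 and 1 higher and lower in the isotype arm and 8 and 0 in the block arm, and 7 were called in each fit that left out 1 library and in the fit of the 8 libraries alone. Mzb1, a chaperone of antibody-secreting cells, was at 101 and 74.3 CPM in isotype PBS, 71.8 and 60.2 in block PBS, 232 and 120 in isotype WT and 255 and 256 in block WT (log2 1.48 ± 0.17, adjusted p = 0.000222). Sdc1 (CD138) was at 14.9 to 23.3 in PBS and 26.2 to 56.4 in WT (log2 1.33 ± 0.23), and Tnfrsf17 (BCMA) at 1.51 to 3.36 and 2.74 to 10.3 (log2 1.80 ± 0.36), where isotype WT replicate 2 was the lowest of the WT libraries and the change was log2 1.20 without isotype WT replicate 1. Eosinophil genes rose in 9 of 10 cases (median log2 2.94), with sums of 101 and 41.7 CPM in isotype WT, 175 and 174 in block WT and 18 to 50.2 in PBS. Erythroid genes rose in 10 of 11 (median 2.90). Hba-a2 of the erythroid list was at 0 in every library and was not tested.

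NK cell, CD8 T cell, myeloid and neutrophil genes had their larger medians in the block arm. NK cell genes rose in 15 of 15 cases, with a median of log2 0.28 with isotype and 2.72 under blockade, and CD8 T cell genes in 8 of 8 (0.48 and 1.30). Over both arms 19 of 20 myeloid genes (-0.46 and 2.86) and 10 of 10 neutrophil genes (-0.36 and 7.30) were called higher, but with isotype 0 were higher and 7 and 4 lower. In the fit of the 8 libraries with an additive antibody term, 4 NK, 3 CD8, 1 myeloid and 1 neutrophil gene were called. That fit called 1919 genes in all, 1040 higher and 879 lower. Ccl5, a chemokine of NK cells and CD8 and memory T cells, rose in each arm, at 399 and 320 CPM against 184 and 175 with isotype and 707 and 432 against 129 and 121 under blockade (log2 1.60 ± 0.13, adjusted p = 2.39e-05). The receptor Ncr1, particular to NK and innate lymphoid cells, did not pass with isotype (17.8 and 9.92 against 13.9 and 10.3) and rose under blockade (30 and 19.3 against 1.57 and 1.22). The Treg list moved the other way by arm, with 12 of 15 higher and 1 lower with isotype (median log2 1.14) and 5 higher and 2 lower under blockade (median -0.18). Over all genes 7.49% were called each way with isotype, and 19.4% were higher and 15.4% lower under blockade. Over both arms 7 rose, among them Klrg1 (log2 2.01), Il10 (1.37) and Lrrc32 (1.43). Klrg1, also on the list of innate lymphoid cells type 2, went against the Treg list. Its response was more positive under blockade (difference 1.21), whereas that of Lrrc32 was more negative (-2.29).

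**Figure D4:**
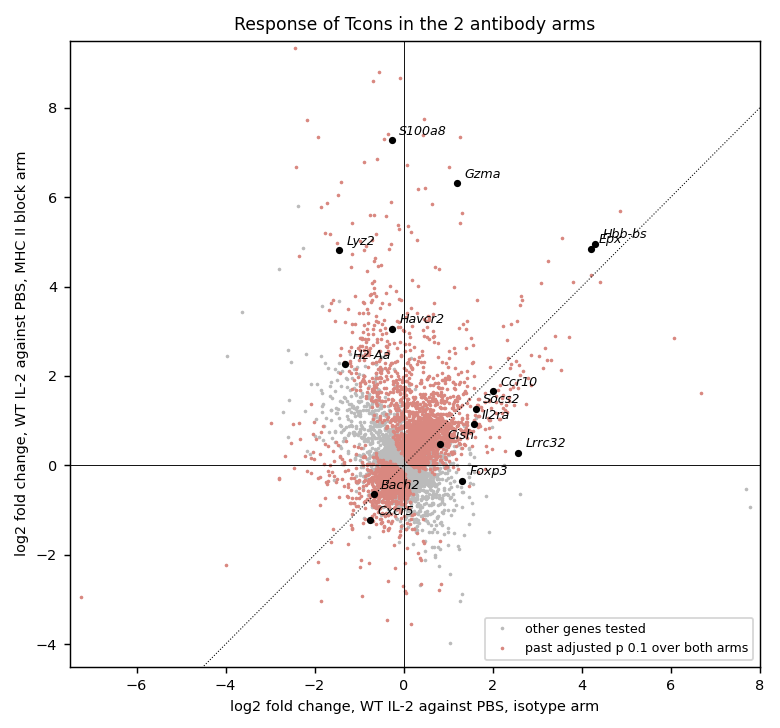
Log2 fold change of WT IL-2 against PBS in Tcons for each gene tested, with the isotype arm on the horizontal and the MHC II block arm on the vertical axis; genes past an adjusted p of 0.1 over both arms are red, named genes are black, and the dotted line marks equal change. Il2ra, Socs2, Cish, Ccr10, Bach2 and Cxcr5 lie in the quadrants of the same direction, whereas S100a8, Lyz2 and H2-Aa lie left of 0 on the isotype axis and above 0 on the block axis.

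The response to WT IL-2 differed between the antibody arms for 1601 genes (12.8%), more positive under MHC II blockade in 1104 (8.81%) and more negative in 497 (3.97%). Without isotype WT replicate 1 there were 4821 (2698 more positive and 2123 more negative), without block WT replicate 1 946 (805 and 141), and without block PBS replicate 1 and 2 1022 and 1001. The genes with the smallest p were Nfam1, Atf3, Alox5ap, Ncf1 and H2-DMb1, of which all but Atf3 are known from myeloid or other antigen-presenting cells. Atf3, a stress factor, was at 160 and 150 CPM in isotype PBS and 82.4 and 73.7 in isotype WT, but at 48.8 and 44.2 in block PBS and 174 and 146 in block WT (difference 2.77 ± 0.15, adjusted p = 2.37e-06). Lyz2, lysozyme of myeloid cells, crossed in the same way, from 48.9 and 56 to 25.3 and 13.3 with isotype and from 8.39 and 8.71 to 279 and 203 under blockade (difference 6.27 ± 0.47, adjusted p = 8.64e-06). S100a8, a neutrophil gene, was at 8.69 and 4.37 against 7.55 and 8.10 with isotype and at 73.5 and 102 against 0.770 and 0.365 under blockade (difference 7.55 ± 0.49).

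The marker lists moved in blocks. More positive under blockade were 20 of 20 myeloid genes, 14 of 14 B cell genes, 10 of 10 MHC class II genes, 13 of 15 NK cell genes and 9 of 10 neutrophil genes, where 8.81% of all genes were. The summed level of each of these lists was lower in block PBS than in isotype PBS. H2-Aa was at 699 and 558 CPM in isotype PBS, 95.8 and 85.5 in block PBS, 279 and 228 in isotype WT and 513 and 364 in block WT (difference 3.59 ± 0.28, adjusted p = 1.08e-05). Pax5 was at 173 and 130, 18.5 and 16.3, 30.2 and 21.8, and 29.2 and 20.4 in the same order. Cd8a was below 0.6 CPM in block PBS, at 8.18 to 12 in isotype PBS, 10.5 and 8.21 in isotype WT and 34.7 and 10.1 in block WT. The antibody given on 2 days binds MHC class II-bearing cells, and how the fractions were affected was not tested.

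More negative under blockade were 9 of 10 CD4 T cell genes, 9 of 15 Treg genes and 11 of 19 costimulatory genes, where 3.97% of all genes were. Foxp3, with the values above, differed by log2 -1.66 ± 0.34 (adjusted p = 0.00712). Lrrc32 (GARP), which presents latent TGF-beta on Tregs, was at 18.7 and 15.8 CPM in isotype PBS, 71.8 and 134 in isotype WT, 20.9 and 25.7 in block PBS and 21.4 and 35.5 in block WT (difference -2.29 ± 0.38, adjusted p = 0.00184). The CD4 T cell sum was 3290 and 3800 CPM in block WT against 4950 and 4930 in block PBS, and 3740 and 4760 against 3780 and 3740 with isotype. Mitosis and S phase genes gave 0 differences between the arms of 25 and 28, where 12.8% of all genes differed.

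H16R, which carries 1 substitution, and 3x, which carries several, are IL-2 muteins, given at the same 25 µg and sampled on the same day. Direct tests of WT against each mutein use no PBS library. WT and H16R Tcons differed in 468 genes (3.74%), 384 higher with WT (3.07%) and 84 lower (0.671%), and WT and 3x Tcons in 2812 (22.4%), 1712 higher (13.7%) and 1100 lower (8.78%). The count against H16R depended on single libraries, from 168 without isotype H16R replicate 1 to 2532 (1393 higher and 1139 lower) without isotype WT replicate 1. It was 1272 without isotype WT replicate 2, and 184 to 299 without isotype H16R replicate 2, block WT replicate 1 or either block H16R library. Against 3x it was 4767 without isotype WT replicate 2, 1184 without block WT replicate 1, 1385 without isotype 3x replicate 2 and 1611 and 1578 without block 3x replicate 1 and 2. Against 3x, 60.9% of the calls were higher with WT, and 50.5% when libraries were scaled by total counts. The changes against PBS are set side by side below, and all of them share the same 4 PBS libraries.

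Il2ra was lower with WT than with H16R (log2 -0.43, 95% interval -0.63 to -0.22, adjusted p = 0.0353), and between WT and 3x the difference was -0.07 (-0.27 to 0.13). Against PBS the values were 1.25 for WT, 1.68 for H16R and 1.32 for 3x. For Cish no difference passed the test, with intervals of -0.28 to 0.24 against H16R and -0.16 to 0.36 against 3x. Socs2 was higher with WT than 3x (0.37, 0.12 to 0.61, adjusted p = 0.0497), and against H16R the interval was -0.34 to 0.15. Gzmb was lower with WT than with either mutein (-0.67, -0.96 to -0.37, and -0.37, -0.67 to -0.07), and Cxcr6 lower than with H16R (-0.60, -0.86 to -0.35, adjusted p = 0.0214).

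Proliferation and naive genes set WT apart from 3x. Of the mitosis and S phase lists, 23 of 25 and 19 of 28 genes were higher with WT than 3x and 0 lower, while 0 differed from H16R. Over all genes 13.7% were higher and 8.78% lower with WT than 3x, and 3.07% higher and 0.671% lower than with H16R. In lists of this size, 0 calls against H16R is near that share. The medians against PBS were 0.75, 0.76 and 0.13 for mitosis and 0.43, 0.39 and 0.02 for S phase, in the order WT, H16R, 3x. Erythroid genes moved with them, with 8 of 11 higher with WT than 3x, 0 called against H16R and medians against PBS of 2.90, 2.21 and 0.57 in the same order. NK cell and myeloid genes were higher with WT than 3x in 12 of 15 and 18 of 20 cases. The part of these cells in the difference was not tested. Rrm2 was higher with WT than 3x by log2 0.87 (0.41 to 1.33, adjusted p = 0.0203). Of the naive genes 16 of 20 were lower with WT than 3x and 4 lower than H16R, among them Nsg2 in both (-0.64, -0.77 to -0.52, and -0.28, -0.40 to -0.16). All 8 plasma cell genes were higher with WT than 3x. Against H16R 0 differed, again near the share over all genes, and the medians against PBS were 1.26, 0.94 and -0.31. Bcl2 was lower with WT than 3x by -0.83 (-1.03 to -0.63, adjusted p = 0.000422) and lower than H16R by -0.36 (-0.56 to -0.17, adjusted p = 0.0645).

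**Figure D5:**
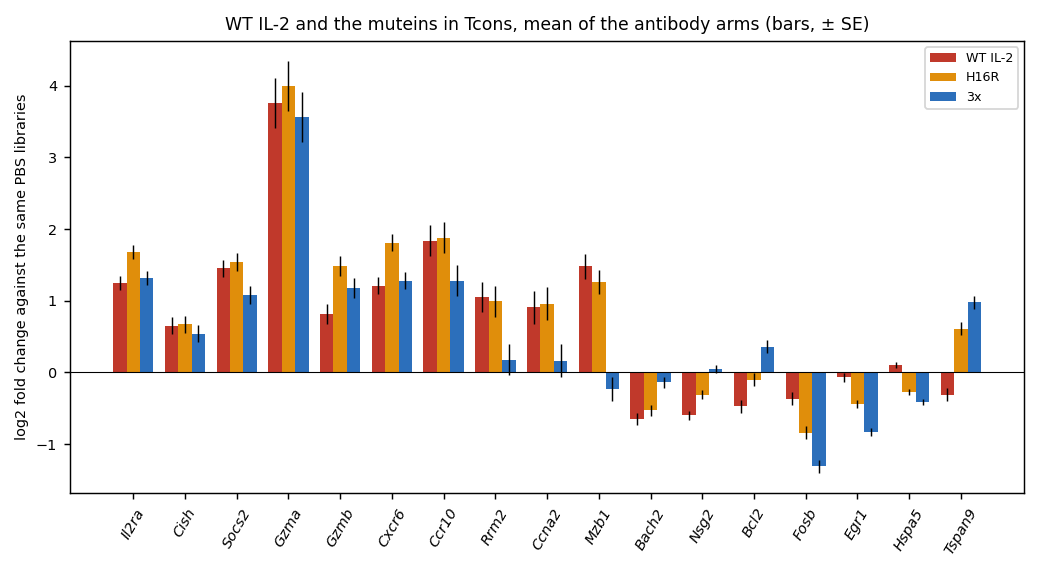
Log2 fold change against PBS (bars, with SE) of 17 genes in Tcons for WT IL-2, H16R and 3x, each the mean of the antibody arms and all against the same 4 PBS libraries. Il2ra, Cish and Socs2 rise with each molecule, whereas Rrm2, Ccna2 and Mzb1 are near 0 with 3x and Bcl2 is lower than PBS with WT and higher with 3x.

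TCR response genes were higher with WT than with the muteins: 14 of 17 against 3x and 7 of 17 against H16R, with 0 lower. Over all genes 13.7% were higher and 8.78% lower against 3x, and 3.07% higher and 0.671% lower against H16R. The count of 0 lower against H16R was thus near that share. Egr1 was higher than with 3x by log2 0.76 (0.63 to 0.89, adjusted p = 9.3e-05) and than with H16R by 0.37 (0.24 to 0.50, adjusted p = 0.00865), and Fosb by 0.94 (0.75 to 1.14) and 0.47 (0.28 to 0.66). Against PBS, the medians of this list were -0.08 with WT, -0.38 with H16R and -0.48 with 3x. Among the genes with the smallest p against 3x were also Entpd1 (CD39), higher with WT by 0.92 (0.79 to 1.05), the secretory genes Creb3l2 (0.78) and Hspa5 (0.51), and Tspan9, lower with WT (-1.29, -1.49 to -1.09). Tspan9 was lower than with H16R too (-0.91, -1.11 to -0.71), as was the mast cell protease Mcpt1 (-1.90, -2.28 to -1.51). Higher with WT than H16R were Atf3 (1.18, 1.02 to 1.34, adjusted p = 3e-05), Nfam1 (0.68) and Ncf1 (0.75), together with 12 of 20 myeloid and 9 of 10 neutrophil genes.

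Tregs and Tcons of the same 8 mice responded differently to WT IL-2 in 3343 of 12844 genes (26%), more positively in Tregs in 1847 (14.4%) and more negatively in 1496 (11.6%), with the mouse as a block. The share of calls more positive in Tregs was 55.2%, and 40.5% when libraries were scaled by total counts. Without the mice isotype WT replicate 1 and isotype WT replicate 2 the counts were 1522 and 4947. Il2ra responded less in Tregs, where it was at 349 to 393 CPM in PBS and 313 to 443 in WT (difference log2 -1.16 ± 0.10, adjusted p = 0.000157). Cish (-0.56 ± 0.10, adjusted p = 0.00486) and Socs2 (-0.63 ± 0.18, adjusted p = 0.0338) also responded less in Tregs. Gzmb responded more in Tregs, with log2 3.15 against 0.81 in Tcons (difference 2.29 ± 0.21, adjusted p = 0.000256), and for Prdm1 (-0.01 ± 0.08) and Bach2 (0.09 ± 0.10) no difference passed.

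S phase genes were more negative in Tregs in 22 of 28 cases and mitosis genes in 17 of 25, with 0 more positive, and their median changes in these Tregs were -0.01 and 0.43. Over all genes 14.4% were more positive and 11.6% more negative in Tregs. Ribosomal protein genes were more negative in 18 of 24. Plasma cell genes were more negative in Tregs in 6 of 8 cases and NK cell genes in 9 of 15. Among the genes with the smallest p, Dntt, Adgrg3 and Cd34, of which Dntt and Cd34 mark progenitors, changed by log2 -1.66, -1.10 and -1.30 in Tregs and by 0.46, 0.51 and 0.57 in Tcons, and Usp28 was 0.36 in Tregs and -0.42 in Tcons. Cxcr5 responded less in Tregs (-0.21 against -0.99, difference 0.80 ± 0.11, adjusted p = 0.00151). The naive genes were more positive in Tregs in 8 of 20 cases and more negative in 2, the latter near the share over all genes.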

How the data were processed

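RNA was sequenced from 48 spleen T cell samples of mice, of which the 8 WT and PBS Tcon libraries are compared here. The authors aligned paired reads with OSA in Omicsoft Array Suite to the mouse B38 genome and deposited, per gene, expected counts (72.4% of the nonzero Tcon values were whole within 1e-06) and FPKM estimated by RSEM. The deposited tables of Treg comparisons hold fold changes and p-values from the authors' DESeq2 1.30.1 fits and were not used.

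Expected counts were rounded. Of 53345 gene names, 51519 (96.6%) matched GENCODE vM21, and protein-coding genes (92.15 to 94.5% of counts) with CPM above 0.5 in at least 4 libraries and no empty cell (7 genes lost) were tested with edgeR 4.0.16 in R 4.3.3: quasi-likelihood fit, TMM factors (0.978 to 1.03), 16 Tcon libraries as 8 groups of 2, 8 residual degrees of freedom, contrasts averaged over both antibody arms, adjusted p under 0.1. Depth sets the precision of low genes, and intervals are 95% intervals of the fit. Nothing states that the 2 mice of a group were housed or treated apart, so p-values measure only the spread between these samples. Treg and Tcon libraries of a mouse were paired by the mouse label, so that fit has the mouse as a block. Their deviations correlated in all 8 groups (0.15 to 0.55), which alone cannot settle the pairing. Steps were tested on simulated data.

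The genes named were the 12 largest rises and 12 largest falls with a call, mean CPM above 5 and no overlap, all genes of the receptor and STAT5 lists, up to 4 called genes of each other list with its defining markers, and the genes with the smallest p of each other comparison. Exceptions are marked, and some genes that this rule selects are not reported here. The members and the 29 lists were chosen with earlier results of these data known. Alternatives covered scaling, filters, thresholds, DESeq2 1.42.0, limma 3.58.1 on log2 FPKM, thinning, a replicate block and left-out libraries. Those without 2 WT libraries at once were chosen after seeing the data.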

Additional observations from a re-analysis of the deposited data

Results flagged for a closer look

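Each group of 4 libraries held the levels of a gene or the sums of a marker list. In 14 of 282 groups 1 library was far from the other 3 by Dixon's ratio. This is the gap to the nearest library over the whole range, here above its 95% critical value. All 14 were genes, and no marker sum was flagged. Chance gives about 1 in 20 such groups, and each group holds both antibody arms. Over the PBS libraries the ratios were Tk1 (0.935), Fosb (0.846) and Creb3l2 (0.851). Over the WT libraries they were Il15ra (0.900), Socs3 (0.886), Bach2 (0.892), Ccr3 (0.901), Ccr10 (0.868), Oas1a (0.868), Slc2a3 (0.846), Cd8a (0.914), Sdc1 (0.901), Tnfrsf17 (0.888) and Plxna3 (0.904).

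The response to WT IL-2 differed between antibody arms for 1601 genes, 42 of them among the 129 named genes that were checked. The log2 response was more positive under MHC II blockade for Osm (0.94), Myc (0.76), Gzmb (0.95), Il12rb2 (0.87), Anxa1 (2.22), Lgals3 (1.44), Havcr2 (3.31), Egr1 (0.62), Ccr2 (0.56), Ccr3 (2.87), Bst2 (0.66), Hk2 (1.45), Pmaip1 (1.30), Klrg1 (1.21), Ncr1 (3.95), Gzma (5.10), Cd8a (5.40), Ccl5 (1.19), Pax5 (3.05), H2-Aa (3.59), H2-DMb1 (3.48), Lyz2 (6.27), S100a8 (7.55), Whrn (0.67), Nfam1 (2.83), Atf3 (2.77), Alox5ap (2.89), Ncf1 (2.88), Entpd1 (0.50) and Hspa5 (0.33). It was more negative for Il2ra (-0.66), Jak3 (-0.71), Stat5a (-0.33), Il6st (-0.52), Itgae (-0.88), Il1rl1 (-0.79), Cd200 (-1.37), Cd3e (-0.77), Cd4 (-0.95), Foxp3 (-1.66), Lrrc32 (-2.29) and Smtn (-1.01).

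Between Tregs and Tcons of the same mice, 3343 genes differed in response, 64 of them among the 129 named genes that were checked. The log2 response was more positive in Tregs for Il2rg (0.16), Il7r (0.48), Il9r (1.20), Jak1 (0.15), Pim1 (0.36), Ccnd2 (0.19), Bcl6 (0.36), Gzmb (2.29), Il6st (0.45), Il1rl1 (0.55), Cxcr5 (0.80), S100a4 (0.43), S100a6 (0.89), Btla (0.61), Cd200 (0.67), Egr2 (0.24), Egr3 (0.52), Insig1 (0.27), Cd3e (0.37), Cd4 (0.62), Smtn (1.54), Apol8 (0.48), Plxna3 (0.26), Sfmbt2 (0.39), Id3 (0.44) and Usp28 (0.79). It was more negative for Il2ra (-1.16), Cish (-0.56), Socs2 (-0.63), Pim2 (-0.25), Ccnd3 (-0.26), Xbp1 (-0.65), Ccna2 (-0.39), Birc5 (-0.35), Ube2c (-0.36), Rrm2 (-0.67), Cdc6 (-0.90), Tk1 (-0.71), Ccne1 (-0.61), Ly6c1 (-0.19), Il12rb2 (-0.44), Anxa1 (-0.81), Cd160 (-0.72), Cxcr6 (-0.60), Hk2 (-0.32), Bik (-0.58), Lrrc32 (-0.84), Klrg1 (-0.58), Ncr1 (-1.75), Gzma (-0.91), Cd8a (-1.24), Sdc1 (-1.14), Mzb1 (-0.78), Tnfrsf17 (-1.19), Hba-a1 (-1.82), Hbb-bs (-1.86), Hbb-bt (-2.75), Fkbp11 (-1.06), Atf3 (-0.48), Alox5ap (-1.00), Entpd1 (-0.50), Dntt (-2.12), Adgrg3 (-1.60) and Cd34 (-1.89). Both sets of differences are edgeR interaction tests at an adjusted p under 0.1.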

How the results depend on the processing

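Leaving out 1 library at a time gave 3187 to 7112 calls for WT against PBS, 598 to 4846 in the isotype arm, 1864 to 3469 in the MHC II block arm, 946 to 4821 for the difference between arms, 168 to 2532 against H16R, 1184 to 4767 against 3x and 1522 to 4947 for Tregs minus Tcons (without 1 mouse). Each such fit leaves a group of 1 mouse, assumed to vary like the other groups, and so do the fits without 2 WT libraries. The lowest and highest counts came without block WT replicate 1 and isotype WT replicate 2 for WT against PBS and against 3x. With a further minimum of 1 on the size of the log2 fold change, the counts, in the same order, were 525, 453, 1077, 909, 109, 341 and 291. At an adjusted p under 0.05 they were 1089 in the isotype arm, 285 against H16R, 1797 against 3x and 2082 for Tregs minus Tcons. The fit of the 8 libraries with an additive antibody term gave 1919 for WT against PBS. For Tregs minus Tcons, DESeq2 gave 2194 and no mouse block 1621. Without the WT libraries of the highest erythroid sums, counts were 2978 in the isotype arm, 3829 for the difference between arms and 2026 against H16R, and without those of the highest Treg and macrophage sums 4922 in the isotype arm. The causes were not tested. Replicate numbers are shared between groups, and deviations of same-numbered Tcon libraries correlated at -0.16 to 0.25. Values of this size cannot settle whether same-numbered mice were paired. With a replicate block, counts were 4760, 1791, 4343, 1532, 441 and 2731 for the 6 Tcon comparisons. Of 4118 values of 165 genes under alternatives, 3723 kept direction and side of the threshold, 318 lost and 45 gained a call, 25 moved without a test call and 7 reversed. The reversals were Socs3 at -0.22 and -0.21 without isotype WT replicate 2, alone or with block WT replicate 1 (against 0.21 without isotype WT replicate 1), and, in a 16-library fit with additive drug and antibody, Ciita (-0.16), H2-Aa (-0.08), H2-Ab1 (-0.04), H2-DMb1 (-0.17) and H2-Eb1 (-0.01), genes of MHC class II expression. Of 147 genes called, 86 kept the call under every alternative other than the fold threshold.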
